A study of Caenorhabditis elegans with 12 samples.

Results

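Set 2 is the group of 4 arrays, of 12 in the series, whose titles carry the set number 2, at the title codes 1 to 4. These 4 arrays were compared with the 7 arrays of sets 1 and 3, of which 4 belong to set 1 (codes 1 to 4) and 3 to set 3 (codes 1, 3 and 4), with the title code as a covariate. The array titled 2_2 (2) was left out of the comparison because its title repeats the set and code of another array, and its values are given beside the others without a set. Gene expression in the nematode Caenorhabditis elegans was measured on single-colour arrays hybridised with biotin-labelled cRNA from total RNA of worm lysate. Codes 1 and 2 are the HLH strain, in which egl-15::gfp is combined with pHS::hlh-8, pHS::hlh-2 and pRF4, and codes 3 and 4 are the marker strain, in which egl-15::gfp is combined with pRF4 alone. Every array therefore came from worms with egl-15::gfp and pRF4, which is named as a transformation marker. The design calls for worms with and without heat shock and for 3 biological replicates. No label ties a code to the heat shock, gives the age of the worms, or says what a set number stands for beyond the replicate. Set 2 is thus 1 replicate batch against a pair of them, so p-values measure the spread between arrays and not the spread between batches.

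The gene hlh-8 encodes the worm's Twist, a basic helix-loop-helix factor of the mesoderm that works with its partner HLH-2. Worm cultures grown separately can differ in age, feeding and the number of eggs and germ cells they hold. Genes for yolk, oocytes, eggshell and sperm are known as markers of late larvae and adults, neuropeptide genes as markers of neurons, lectins and lysozymes as markers of the intestinal defence against microbes, and nuclear receptors, which are exceptionally many in this species, as regulators of metabolism and moulting. In RNA from a whole lysate, fewer cells of a type and less RNA per cell cannot be told apart.

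The deposited MAS5 signal, a linear intensity scaled by the authors to a trimmed mean of 500 on each array, had a median of 201 to 208 on the 4 arrays of set 2 and of 180 to 200 on the 7 of sets 1 and 3. The exact two-sided permutation test gave p = 0.00606, the smallest p it can give with these arrays, and adjusted p = 0.0786 over the 13 measures tested. The 99th percentile of signal was 7312 to 8756 in set 2 and 8624 to 10858 in sets 1 and 3, with overlap (exact permutation p = 0.0121, adjusted p = 0.0786). The actin control's 3′ over 5′ signal, a measure of RNA integrity and labelling, was 2.13 to 2.18 in set 2 and 1.51 to 2.14 in sets 1 and 3 (exact permutation p = 0.0182, adjusted p = 0.0786). The Gapdh control gave 1.35 to 1.64 in set 2 and 1.16 to 1.46 in sets 1 and 3 (exact permutation p = 0.0242, adjusted p = 0.0786). The ubiquitin control gave 6.15 to 9.53 in set 2 and 4.51 to 8.04 in sets 1 and 3 (exact permutation p = 0.261, adjusted p = 0.463). None of the 13 measures passed after adjustment. Over 13 measures a single one could not pass alone, even at the smallest p of 0.00606. The lack of a pass therefore does not show that the arrays were alike, and the median signals of set 2 and of sets 1 and 3 did not overlap. The actin ratio and the set number moved together, with set 1 code 1 at 2.14 inside the range of set 2, so their parts in the differences below cannot be told apart. The array titled 2_2 (2) had a median signal of 193, an actin ratio of 1.6 and a Gapdh ratio of 1.3.

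**Figure D1:**
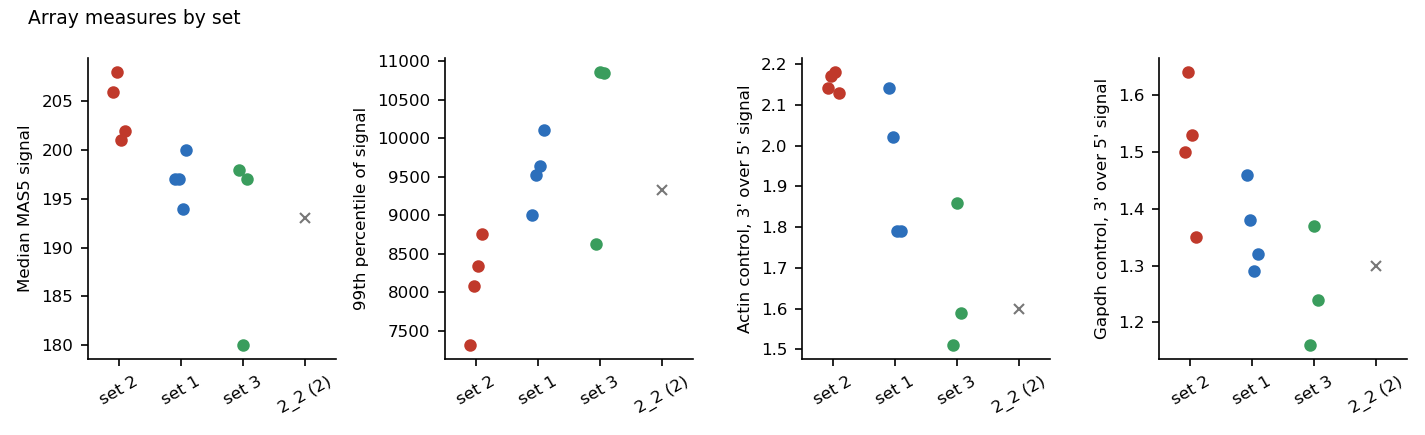
Median MAS5 signal, 99th percentile of signal and the 3′ over 5′ signal of the actin and Gapdh controls, each point being 1 array, with set 2 left of set 1 and set 3 and a cross for the array titled 2_2 (2). The axes do not start at 0. All 4 arrays of set 2 lie above the 7 others for the median signal, while for the other 3 measures at least 1 array of sets 1 and 3 falls in the range of set 2.

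The genes of the strains' constructs gave a check of the labels. In the HLH strain hlh-8 had signals of 1359.5 and 4696.3 in set 2, against 707.7 to 4842.8 in sets 1 and 3. In the marker strain it had 134.5 and 130.0 in set 2, against at most 200.7 in sets 1 and 3. The high values lay in the HLH strain in every set, and set 2 differed by a log2 of 0.07 ± 0.17 (SE), adjusted p = 0.79. Its partner hlh-2 had 1052.6, 1508.2, 233.5 and 334.4 at codes 1 to 4 of set 2, against 167.6, 301.8 and 761.1 as lowest, median and highest in sets 1 and 3. It was called higher in set 2, 0.66 ± 0.18, adjusted p = 0.014, while the arrays overlapped and the call was lost in 9 of the alternative settings. Differences of egl-15 (0.40, adjusted p = 0.06), rol-6 (0.08, adjusted p = 0.52), hsp-16.2 (-0.55, adjusted p = 0.087) and hsp-16.41 (-0.26, adjusted p = 0.58) did not pass. After quantile normalization rol-6, a cuticle collagen gene, was higher in set 2 by 0.33, adjusted p = 0.016.

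Set 2 differed from sets 1 and 3 in 4500 of 12265 tested probe sets, 36.7%, at an adjusted p under 0.05 in limma. Of these, 2636 were higher in set 2, 21.5% of those tested, and 1864 were lower, 15.2%, so 58.6% of the calls were higher. Quantile normalization, which gives all arrays 1 distribution of signals, left 4013 calls, 32.7%, with 1937 higher and 2076 lower, so the higher share was 48.3%. In all, 3333 probe sets were called the same way under both scalings and 1 was called in opposite directions. With the set number as a random block 3319 probe sets were called, 27.1%, and all 3319 were among the 4500. Set 2 is a single block in that fit, so the spread between batches is drawn from sets 1 and 3 alone. Changes of at least 2-fold were fewer and uneven, 326 higher (2.66%) and 64 lower (0.522%), and at least 4-fold 32 were higher and 3 lower. The median difference over all tested probe sets was 0.04 on the log2 scale and -0.02 after quantile normalization.

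Set 2 differed from each of the other sets in more probe sets than those differed from each other. Set 2 against set 1 alone gave 4081 calls, 33.3%, with 2365 higher and 1716 lower, and set 2 against set 3 alone gave 4543, 37%, with 2713 higher and 1830 lower. These comparisons share the arrays of set 2. Set 3 against set 1, with 3 arrays against 4, gave 176 calls, 1.43%, with 47 higher and 129 lower in set 3. At each of the 4500 called probe sets the mean of set 2 lay above both other sets or below both. The median size of the difference over these probe sets was 0.53 for set 2 against sets 1 and 3 and 0.16 for set 3 against set 1. Over all tested probe sets it was 0.27 for set 2 against sets 1 and 3 and 0.16 for set 3 against set 1.

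Array by array, set 2 lay beyond every array of sets 1 and 3 with the same code, at all 4 codes, in 4599 probe sets (37.5%), 2681 above and 1918 below, and 3825 of them were also called. All 4 arrays of set 2 lay above all 7 others in 1528 probe sets and below all 7 in 849, together 2377, 19.4%. Over these 2377 the array titled 2_2 (2) lay within the range of sets 1 and 3 in 1714, within that of set 2 in 151, between the ranges in 353 and beyond the outer edges in 159. No set was given to that array on these values. The difference did not depend detectably on the strain: 0 of 12265 probe sets passed the limma test of a set 2 difference that differs between the HLH and the marker strain, 706 had an unadjusted p under 0.05, and 5 passed when dim probe sets were kept.

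The filter bears on the rises and on the falls. In 574 tested probe sets the arrays of set 2 were needed to reach the required 3 arrays above the array median, and 326 of them were called higher and 0 lower. These 574 hold 141 of the 326 rises of at least 2-fold. In turn, probe sets below the array median on every array of set 2 were tested only through sets 1 and 3. Such probe sets were not counted, and tag-164, ncbp-2, puf-5 and ins-30 below are among them. High values in sets 1 and 3 were a condition of their being tested, so their p-values describe the spread of the arrays and support nothing further. For genes, each represented by its brightest probe set that names 1 gene, 1949 of 9371 were higher in set 2 (20.8%) and 1424 lower (15.2%), and 229 were at least 2-fold higher (2.44%). Of the 8965 genes that pass the filter on sets 1 and 3 alone, 1723 were higher, 19.2%. After quantile normalization 1441 genes were higher (15.4%) and 1598 lower (17.1%). With the actin ratio as a covariate, 686 of the 9371 were higher and 520 lower. Without the set 2 array of code 4, 1486 of 12265 probe sets were higher and 1048 lower. Leaving out that of code 3 gave 1627 and 1112. These values, each under its own setting, are the background for the gene groups below.

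The highest rises in set 2 included a protease gene, a replication protein A relative, a Dicer-related helicase and several MATH genes, and some of them had signals near the floor of 16.7 in sets 1 and 3. Of the 15 largest rises 12 were tested only through the arrays of set 2, since fewer than 3 arrays of sets 1 and 3 lay above the array median, and the other 3 were drh-2, math-27 and math-3. A rise among the 12 was a condition of their being tested, so their p-values describe the spread of the arrays and support nothing further. The gene try-12, named for a trypsin-like protease domain, had 221.8, 240.7, 457.9 and 346.7 at codes 1 to 4 of set 2, against a lowest of 15.2, a median of 22.6 and a highest of 24.3 in sets 1 and 3. On 2 of those 7 arrays it lay below the floor and was raised to it, and it was above the array median on 0 of the 7, so the fitted difference of 3.89 ± 0.54 on the log2 scale (adjusted p = 0.0003) depends on the floor and no fold is given. A gene related to replication protein A, the single-stranded DNA binding complex, rpa-4, had 1088.6, 1307.6, 1356.4 and 1197.7 in set 2, against 75.1, 151.6 and 233.2 as lowest, median and highest in sets 1 and 3. Its arrays did not overlap, with a rise of 3.10 ± 0.23, adjusted p = 1.6e-05, and set 3 lay below set 1 by 0.81, adjusted p = 0.048. Signals of drh-2, a Dicer-related helicase gene, were 1993.2, 4414.6, 2514.6 and 3313.3 in set 2, against 156.7, 482.1 and 878.7 in sets 1 and 3. The 6.57-fold rise, 2.72 ± 0.31, adjusted p = 0.0001, came with no overlap, and the set 3 minus set 1 difference was -1.17, adjusted p = 0.024. The uncharacterised gene T02H6.3 had 388.5, 493.8, 485.8 and 661.9 in set 2, against a median of 94.5 and a highest of 192.2 in sets 1 and 3, a rise of 2.98 ± 0.59, adjusted p = 0.0024, while set 3 lay 2.48 below set 1, adjusted p = 0.0093. Its call was lost with the actin ratio as a covariate, adjusted p = 0.14.

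The MATH and BTB genes encode substrate adaptors of ubiquitin ligases. In this family math-35, above the array median on 0 of the 7 arrays of sets 1 and 3, had 324.7, 450.9, 903.7 and 821.1 in set 2, against 24, 69.4 and 126.3 as lowest, median and highest in sets 1 and 3, a rise of 3.10 ± 0.44, adjusted p = 0.00034. Its relative math-3 had 995.0, 1417.4, 1765.3 and 2040.1 in set 2, against 141.8, 296.9 and 353.9 in sets 1 and 3, a rise of 2.56 ± 0.26, adjusted p = 6.5e-05. Signals of math-27 were 517.3, 939.1, 1217.4 and 1598.7 in set 2, against 66, 210.7 and 255.8 in sets 1 and 3, a rise of 2.57 ± 0.37, adjusted p = 0.00034. None of the 3 had overlapping arrays. On chromosome II math-27, math-26 and math-3 are 3 consecutive tested genes, with rises of 1.99 to 2.57. Because the family's members are alike in sequence, cross-hybridisation between them was not tested. A BTB gene, btb-14, was higher by 2.51, adjusted p = 0.0016, with the nearest array of sets 1 and 3 at 172.4 and the lowest of set 2 at 196.5.

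All of the other largest rises were tested only through the arrays of set 2. Among them C02G6.1, annotated as a pseudogene, was higher by 3.28 ± 0.51 (adjusted p = 0.0006), and best-19, of the bestrophin chloride channel family, by 2.57 ± 0.40 (adjusted p = 0.00055). The gene F27D4.6 was higher by 2.40 ± 0.33 with 1 of its probe sets, adjusted p = 0.00027, and by 0.11 with the other, which did not pass. Smaller margins were seen for B0285.3 (2.39, adjusted p = 0.0064), the TRP cation channel gene trp-2 (2.33, adjusted p = 0.011), the nuclear receptor gene nhr-195 (2.25, adjusted p = 0.005) and Y94H6A.5 (2.18, adjusted p = 0.0046). Each of these 4 lost its call under at least 1 alternative. For trp-2 the adjusted p was 0.074 without the set 2 array of code 3 and 0.058 without that of code 4, and for B0285.3 it was 0.055 and 0.052. For Y94H6A.5 it was 0.053 without the set 2 array of code 4, and for nhr-195, whose arrays overlapped, 0.12 with the actin ratio as a covariate.

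Falls were smaller than rises, and some of them were tested only through the arrays of sets 1 and 3. The gene tag-164 had 88.4, 93.7, 20 and 53.2 in set 2, against a lowest of 130.3, a median of 267.5 and a highest of 357.8 in sets 1 and 3, 4.82-fold lower, -2.27 ± 0.35, adjusted p = 0.00052. The pseudogene C53C7.5 was lower by a log2 of -2.22 ± 0.17 (adjusted p = 2.2e-05), and pqn-75, named for a glutamine- and asparagine-rich prion-like domain, by -2.04 ± 0.23 (adjusted p = 9.4e-05). Signals of ncbp-2, the small subunit of the nuclear cap-binding complex, were 114.1, 75.3, 74.5 and 69.6 in set 2, against 172.8, 290.7 and 348.1 in sets 1 and 3. It was 3.23-fold lower, -1.69 ± 0.19, adjusted p = 9.4e-05, with no overlap, whereas ncbp-1, the large subunit, was called higher by 0.38 ± 0.13, adjusted p = 0.037, with overlap and with the call lost in 15 settings. The neuropeptide gene flp-7 had 370.0, 460.4, 323.8 and 318.6 in set 2, against 597.7, 1108.2 and 1201.3 in sets 1 and 3, a fall of -1.46 ± 0.17, adjusted p = 0.00012. A subunit of the vacuolar proton pump, vha-12, had 2833.4, 1961.7, 1839.2 and 1916.7 in set 2, against 4243.7, 5038.6 and 6648.5 in sets 1 and 3, a fall of -1.3 ± 0.14, adjusted p = 7.8e-05. Neither gene's arrays overlapped. Of the other named falls, ugt-23, a glucuronosyltransferase gene, was lower by -1.29 ± 0.11 (adjusted p = 2.6e-05), the mitochondrial ND5 by -1.32 ± 0.21 (adjusted p = 0.00062), the cuticle collagen gene col-150 by -1.80 ± 0.34 (adjusted p = 0.0018), and C17H12.8 by -1.28 ± 0.15 (adjusted p = 0.00011). The call of col-150 was lost with the actin ratio as a covariate, adjusted p = 0.065. The remaining falls were nspg-7.2 (-1.73), B0273.1 (-1.53), T05C1.2 (-1.5, with overlap), nssp-39 (-1.31) and C12D12.1 (-1.29), with adjusted p from 8.6e-05 to 0.0044. Of these 5 only nssp-39 kept its call in every setting tried. The adjusted p was 0.1 for nspg-7.2, 0.072 for T05C1.2 and 0.14 for C12D12.1 with the actin ratio as a covariate, and 0.05 for B0273.1 against set 3 alone.

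**Figure D2:**
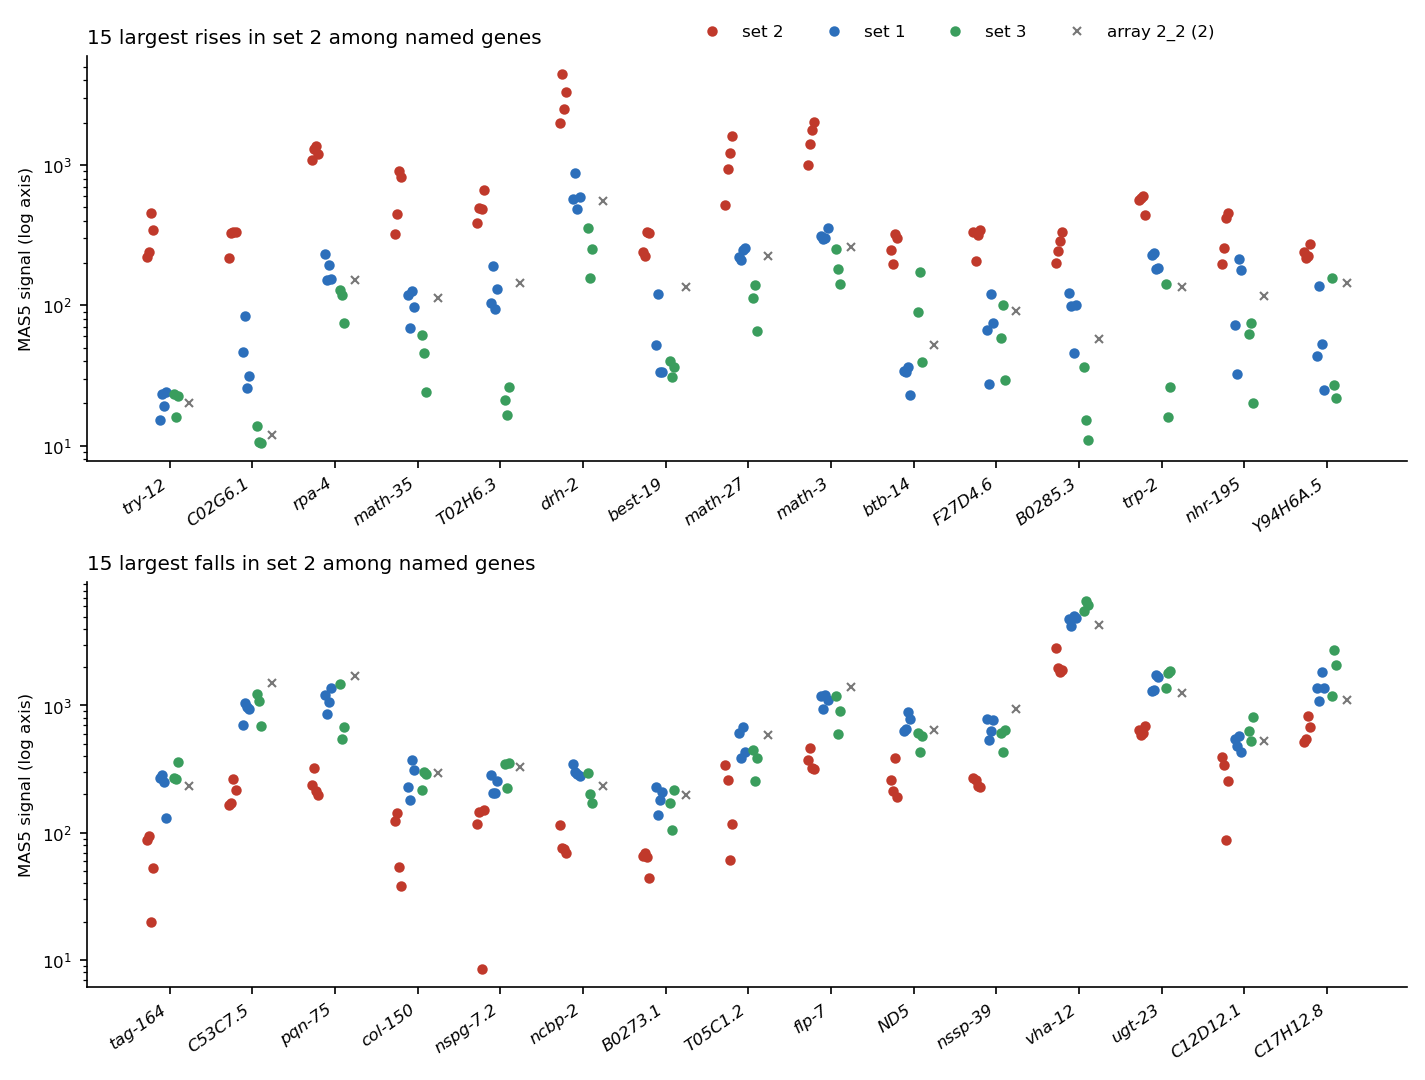
MAS5 signal on a log axis for the 15 largest rises (upper panel) and 15 largest falls (lower panel) among called genes whose set 2 array lay beyond every array of the same code, each point being 1 array, with set 2 left of set 1 and set 3 and a cross for the array titled 2_2 (2). The groups overlap for nhr-195 and T05C1.2. Among rises, set 3 tends to the low end for T02H6.3, drh-2, trp-2 and rpa-4, whose set 3 minus set 1 differences were also called.

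Many genes of protein synthesis and energy metabolism were lower in set 2. Of 74 tested ribosomal protein genes, 71 were lower and 0 higher, with a median difference of -0.32 against 0.04 over all genes. The median of the ribosomal genes on each array, taken relative to each gene's mean over 11 arrays, was -0.36 to -0.11 in set 2 and -0.09 to 0.26 in sets 1 and 3. The large-subunit gene rpl-23A.1 had 8125.4, 9254.9, 7410.4 and 8758.8 in set 2, against a lowest of 11311.7, a median of 13434.7 and a highest of 14488.2 in sets 1 and 3, 1.62-fold lower, adjusted p = 5.9e-05. After quantile normalization 12 of the 74 were lower and 1 higher with a median of -0.03, so most ribosomal calls rest on the deposited scaling, while rpl-23A.1 stayed lower by -0.40, adjusted p = 0.00064. Ribosomal genes are bright, with a median mean signal of 13067.

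Translation factors, grouped after their values were seen, had 18 of 36 lower and 0 higher, with 13 lower after quantile normalization. The initiation factor 3 subunit eif-3.F had 4212.8, 4367.9, 2987.4 and 2908.2 in set 2, against 5507.7, 6532.7 and 7677.6 in sets 1 and 3, a fall of -0.89 ± 0.10, adjusted p = 9.4e-05. The eIF4A helicase gene inf-1 was lower by -1.09 ± 0.17, adjusted p = 0.00066, with overlap. Poly(A)-binding protein pab-1 was lower by -0.75 ± 0.07, adjusted p = 6e-05. Of 57 mitochondrial ribosomal protein genes 21 were lower and 5 higher, and of 31 aminoacyl-tRNA synthetase genes, also grouped afterwards, 11 were lower and 6 higher. Among these the cytosolic pars-1 (-0.59 ± 0.10, adjusted p = 0.00074) and ears-1 (-0.57 ± 0.12, adjusted p = 0.0035) were lower, whereas the mitochondrial lars-2 (0.54 ± 0.11, adjusted p = 0.0032) was higher. Without the set 2 array of code 4, 6 synthetase genes were lower, and without that of code 3, 13 mitochondrial ribosomal genes.

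Respiratory chain genes were lower in 18 of 33 and higher in 1, with a median of -0.32, and 16 were lower after quantile normalization. The complex I gene nduf-5 had 2590.6, 2915.2, 2771.9 and 2991.8 in set 2, against 4298.6, 5337.9 and 5549.2 in sets 1 and 3, a fall of -0.84 ± 0.09, adjusted p = 9.1e-05, with no overlap. The cytochrome oxidase gene cox-4 was lower by -0.69 ± 0.08, adjusted p = 9.4e-05. Genes of the citric acid cycle and one-carbon metabolism were lower in 23 of 41 and higher in 1, with 15 lower and 1 higher after quantile normalization. They include fumarase, fum-1 (-0.74 ± 0.10, adjusted p = 0.00027), the propionyl-CoA carboxylase subunit pccb-1 (-0.73 ± 0.09, adjusted p = 0.00017) and adenosylhomocysteinase, ahcy-1 (-0.64 ± 0.08, adjusted p = 0.00014). Each of the 3 kept its call after quantile normalization, at -0.66, -0.59 and -0.38. With the actin ratio as a covariate, 53 ribosomal, 11 respiratory and 13 citric acid cycle and one-carbon genes were lower, and 15 of the last group without the set 2 array of code 4.

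Chaperone and tubulin genes were lower too. Cytosolic chaperone genes were lower in 15 of 29 and higher in 2, also after quantile normalization. The chaperonin subunit cct-4 had 3090.4, 2917.2, 1758.3 and 2452.2 in set 2, against 4195.1, 4982.4 and 5199.6 in sets 1 and 3, a fall of -0.95 ± 0.10, adjusted p = 9.1e-05. The constitutive Hsp70 gene hsp-1 was lower by -0.84 ± 0.13 (adjusted p = 0.00068) and hsp-90 by -0.48 ± 0.08 (adjusted p = 0.00082), hsp-90 with overlap. Of 14 inducible heat shock genes, 4 were lower (28.6%, against 15.2% over all genes) and 1 higher. With the array titled 2_2 (2) kept in set 2, 1 of the 14 was lower. The gene sip-1, a small heat shock protein gene of embryos, was lower by -1.05 ± 0.16, adjusted p = 0.00046. The heat shock transcription factor gene hsf-1 was higher by 0.74 ± 0.17, adjusted p = 0.0048. Tubulin genes were lower in 9 of 15 and higher in 1, with beta-tubulins tbb-2 at -0.72 ± 0.07 (adjusted p = 6.8e-05) and tbb-4 at -0.89 ± 0.11 (adjusted p = 0.00017). Proteasome genes were lower in 8 of 32 (25%, against 15.2% over all genes) and higher in 1. With the actin ratio as a covariate 2 proteasome genes were lower.

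**Figure D3:**
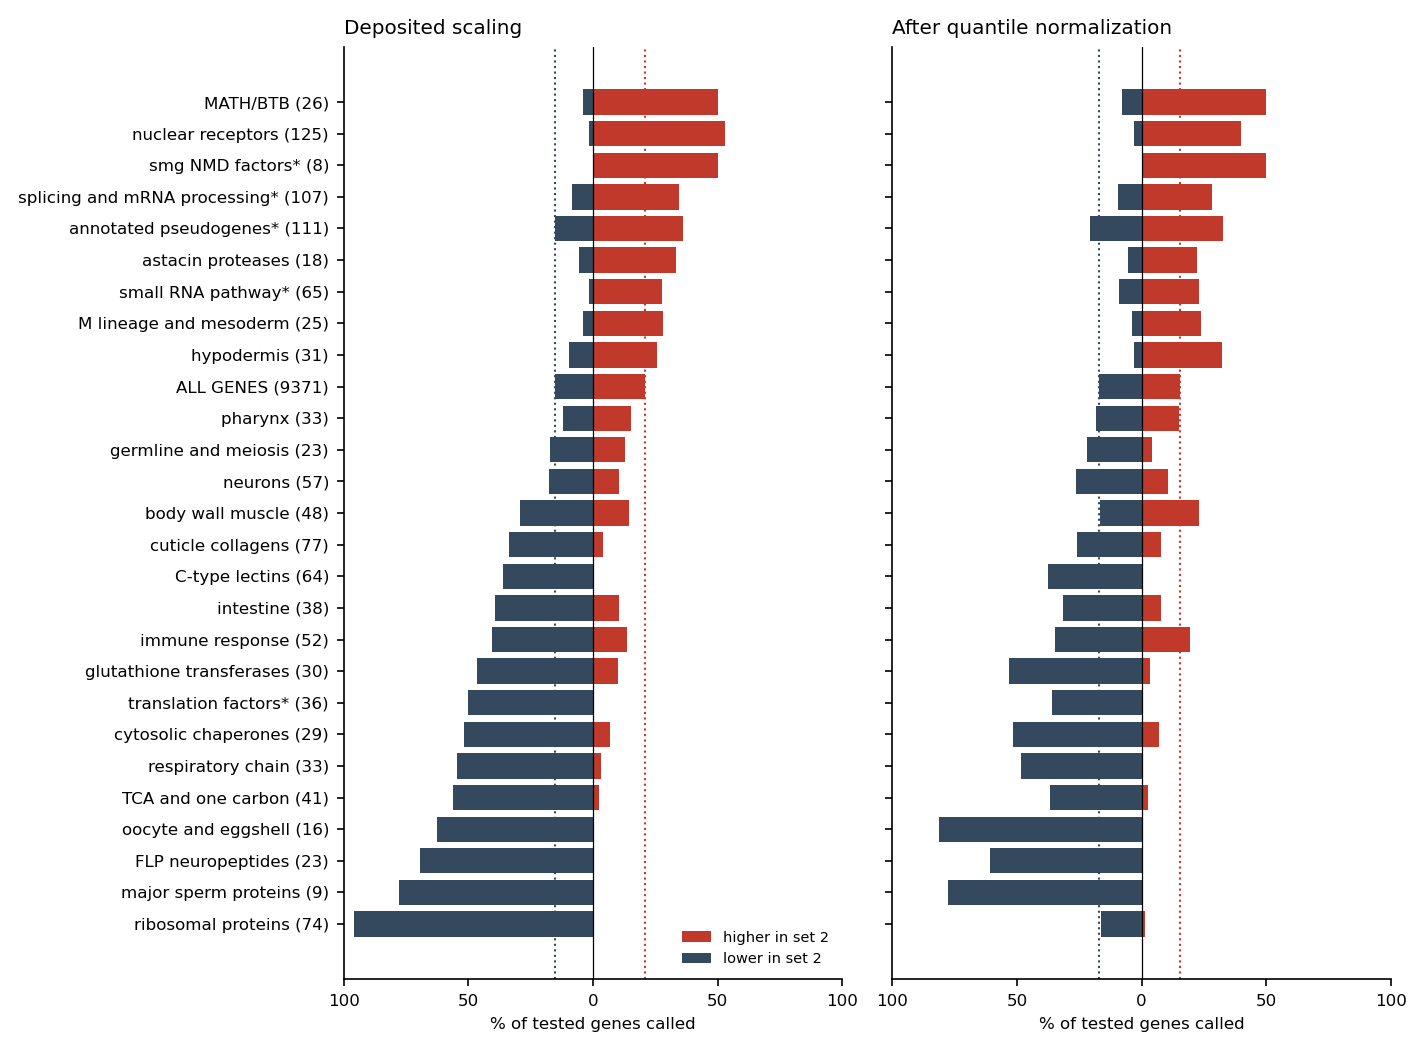
Percent of tested genes in each group called higher (right of 0) or lower (left of 0) in set 2, with the deposited scaling (left panel) and after quantile normalization (right panel), the number tested in brackets. Dotted lines mark the shares over all 9371 genes, 20.8% higher and 15.2% lower with the deposited scaling. An asterisk marks a group chosen after its values were seen. Ribosomal proteins have 71 of 74 lower on the left and 12 of 74 on the right, while oocyte and eggshell genes have 10 of 16 on the left and 13 of 16 on the right.

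Most tested genes of oocytes and the eggshell were lower in set 2. Of 24 listed genes 22 were on the array and 16 were tested, and 10 of these were lower and 0 higher, with a median of -0.54. After quantile normalization 13 were lower and the median was -0.55. The eggshell chondroitin proteoglycan gene cpg-1 had 476.6, 387.7, 367.1 and 397.0 in set 2, against a lowest of 626.0, a median of 705.3 and a highest of 816.7 in sets 1 and 3. It was 1.74-fold lower, -0.80 ± 0.12, adjusted p = 0.0004, with no overlap. Its partner cpg-2 was lower by -0.90 ± 0.13, adjusted p = 0.00036, with overlap. The oocyte RNA-binding protein gene puf-5 had 96, 125.6, 107.1 and 135.4 in set 2, against 160.8, 198.7 and 268.6 in sets 1 and 3, a fall of -0.87 ± 0.18, adjusted p = 0.003. The egg activation gene egg-3 (-0.71 ± 0.15, adjusted p = 0.003) and the embryonic polarity gene mex-5 (-0.60 ± 0.11, adjusted p = 0.0019) were lower with no overlap. The eggshell gene cbd-1 (-0.68 ± 0.19, adjusted p = 0.013) was lower with overlap, and its call was lost in 4 settings. The group median on each array was -0.41 to -0.20 in set 2 and 0.12 to 0.31 in sets 1 and 3, and -0.02 on the array titled 2_2 (2). Of the 16 genes, 6 were lower with the actin ratio as a covariate. Mean signals in set 2 were 139 for egg-1, 145 for egg-3, 141 for cbd-1, 175 for cpg-2 and 116 for puf-5. These lie below the set 2 array medians of 201 to 208, against 216 to 359 in sets 1 and 3. The other lowered genes, egg-2, cpg-1, mbk-2, mex-5 and pqn-59, had set 2 means of 277 to 2210. Genes tested only through sets 1 and 3 were not counted, and for these high values there were a condition of testing.

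Of 5 yolk genes on the array only vit-6 was bright enough to be tested. It had 324.6, 262.6, 242.8 and 157.9 in set 2, against 316.7, 422.5 and 533.7 in sets 1 and 3, a fall of -0.74 ± 0.18, adjusted p = 0.007, with overlap at code 1 and with adjusted p = 0.14 when the actin ratio was a covariate. Of 23 major sperm protein genes, the cytoskeletal proteins of nematode sperm, 9 were tested and 7 were lower, with a median of -0.46. The gene msp-40 had 287.0, 236.7, 229.8 and 222.9 in set 2, against 289.7, 344.6 and 374.0 in sets 1 and 3, a fall of -0.46 ± 0.11, adjusted p = 0.0065. These genes are near-identical copies whose probe sets may share transcripts, and the count of lower genes was 1 without the set 2 array of code 4. With the actin ratio as a covariate 0 of the 9 were called by limma, and 3 were lower at an unadjusted p under 0.05. The wider sperm list had 2 of 10 lower and 1 higher.

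Other germline groups were mixed. Of 23 germline and meiosis genes 4 were lower (17.4%, against 15.2% over all genes) and 3 higher. The translational repressor gene gld-1 had 317.3, 268.1, 170.7 and 195.5 in set 2, against 296.0, 377.9 and 491.1 in sets 1 and 3, a fall of -0.71 ± 0.17, adjusted p = 0.0069, with overlap. The other probe set of gld-1, at -0.39, was not called. The partner of gld-1, fog-2, which promotes hermaphrodite sperm, was lower by -0.96 ± 0.22, adjusted p = 0.0049, with overlap. The mean signal of fog-2 was 120 in set 2, below the set 2 array medians of 201 to 208, and 228 in sets 1 and 3. In contrast the P granule helicase gene glh-1 had 2261.6, 1958.8, 1677.8 and 1564.1 in set 2, against 979.6, 1246.9 and 1355.1 in sets 1 and 3, a rise of 0.60 ± 0.11, adjusted p = 0.0016, with no overlap. Of 24 embryo genes 5 were higher, among them skn-1 at 0.76 ± 0.12, adjusted p = 0.00066, and 3 lower. These embryo shares, 20.8% higher and 12.5% lower, were near those over all genes, 20.8% and 15.2%. Of 46 cell cycle and replication genes 9 were lower (19.6%) and 3 higher. Of 9 tested male genes 3 were lower. Without the set 2 array of code 3 the germline count was 2 lower and the embryo count 3 higher, and without the set 1 array of code 2 the cell cycle count was 5 lower.

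Neuropeptide genes of the FMRFamide-like family were lower in 16 of 23 and higher in 0, with a median of -0.43. After quantile normalization 14 were lower with a median of -0.48. The median over the family on each array was -0.33 to -0.21 in set 2 and 0.02 to 0.29 in sets 1 and 3. Beside flp-7, flp-4 had 288.8, 247.8, 189.7 and 194.6 in set 2, against 345.4, 386.8 and 446.0 as lowest, median and highest in sets 1 and 3, a fall of -0.80 ± 0.11, adjusted p = 0.00024. The genes flp-12 (-0.73 ± 0.16, adjusted p = 0.0039) and flp-18 (-0.59 ± 0.12, adjusted p = 0.0024) were lower with no overlap. With the actin ratio as a covariate 6 of the 23 were lower, where 520 of 9371 genes were lower. Without the set 2 array of code 4, 9 of the 23 were lower.

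From the list of 57 tested neuron genes, which had 10 lower and 6 higher with a median of -0.03, 5 genes that act in making and releasing neuropeptides were picked after their values were seen. The proprotein convertase gene egl-3 had 2576.3, 2524.7, 2763.6 and 3039.2 in set 2, against 4263.1, 4744.2 and 5677.6 in sets 1 and 3, a fall of -0.83 ± 0.09, adjusted p = 9.4e-05. Carboxypeptidase E, egl-21, had 2845.9, 2932.0, 2788.2 and 3182.6 in set 2, against 3678.9, 4852.0 and 6168.8 in sets 1 and 3, a fall of -0.72 ± 0.12, adjusted p = 0.0011. The convertase chaperone gene sbt-1 (-0.68 ± 0.10, adjusted p = 0.00034), the dense core vesicle gene ida-1 (-0.57 ± 0.12, adjusted p = 0.0037) and the peptide amidation gene pgal-1 (-0.49 ± 0.09, adjusted p = 0.0015) were lower with no overlap. The other probe set of ida-1, at -0.39, was not called. Both egl-3 and sbt-1 kept their call in every setting tried. With the actin ratio as a covariate the adjusted p was 0.069 for egl-21, 0.072 for ida-1 and 0.062 for pgal-1, and with the array titled 2_2 (2) kept in set 2 it was 0.077 for egl-21 and 0.063 for ida-1. Among the 6 higher genes of the list the GABA receptor gene unc-49 rose by 0.87 ± 0.12, adjusted p = 0.00023. The touch receptor gene mec-2 was higher by 1.12 ± 0.24, adjusted p = 0.0034, whereas mec-7, a tubulin of the same neurons, was lower by -0.59 ± 0.09, adjusted p = 0.00068. The other probe set of each was not called, at 0.27 for mec-2 and -0.42 for mec-7. With the actin ratio as a covariate mec-2 lost its call, adjusted p = 0.16.

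Insulin-like peptide genes were lower in 6 of 13 and higher in 0, with 3 lower without the set 2 array of code 4 and 2 with the actin ratio as a covariate. The gene ins-30 had 107.4, 138.8, 186.0 and 170.0 in set 2, against 261.3, 376.5 and 533.7 in sets 1 and 3, a fall of -1.23 ± 0.17, adjusted p = 0.00025. The gene ins-35 was lower by -0.98 ± 0.12, adjusted p = 0.00014, and daf-28, an insulin that promotes growth over dauer arrest, by -0.61 ± 0.13, adjusted p = 0.0044, with overlap. The neuropeptide-like genes went both ways, 12 of 49 lower and 7 higher, with 5 lower without the set 2 array of code 4. Here nlp-1 was lower by -1.12 ± 0.14, adjusted p = 0.00016. Its namesake nlp-33, which encodes an antimicrobial peptide of the epidermis, had 6543.2, 8132.2, 7644.0 and 7837.7 in set 2, against 2499.8, 3257.6 and 4109.6 in sets 1 and 3, a rise of 1.18 ± 0.09, adjusted p = 1.6e-05. The related nlp-27 rose by 0.92 ± 0.12, adjusted p = 0.00024.

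**Figure D4:**
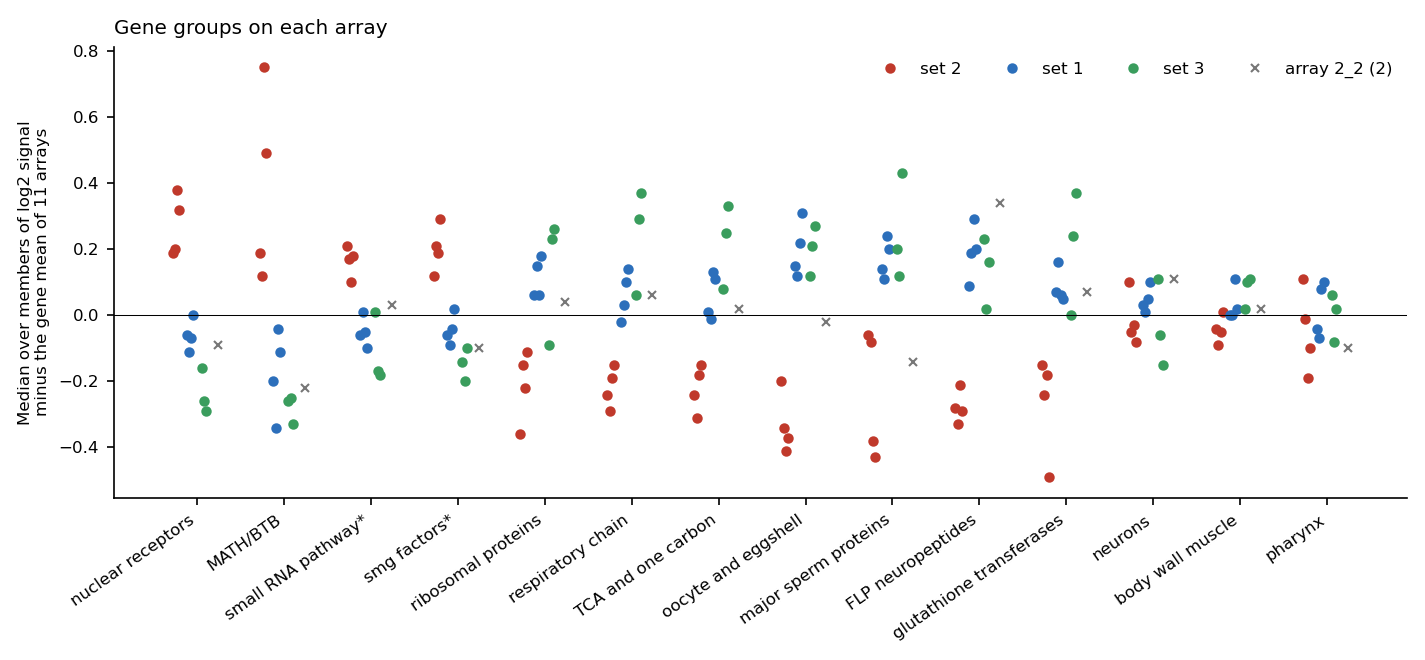
Median over the tested genes of each group of log2 signal minus the gene's mean over 11 arrays, each point being 1 array, with set 2 left of set 1 and set 3 and a cross for the array titled 2_2 (2). An asterisk marks a group chosen after its values were seen. Set 2 lies above the other sets for nuclear receptors, MATH and BTB genes, small RNA and smg genes, and below them for ribosomal, respiratory, citric acid cycle, oocyte, major sperm protein, FMRFamide-like and glutathione transferase genes, while neurons, body wall muscle and pharynx overlap. Over the 17 MATH and BTB genes that pass the filter on sets 1 and 3 alone the medians are -0.01 to 0.32 in set 2 and -0.26 to 0.05 in sets 1 and 3 and overlap, and over the 106 such receptors they are 0.14 to 0.34 in set 2 and -0.26 to 0.02 in sets 1 and 3.

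Of 52 tested immune response genes 21 were lower in set 2 and 7 higher. Without the set 2 array of code 4 the lower count was 10, and with the actin ratio as a covariate 8. The infection response gene irg-3 had 382.4, 225.4, 326.0 and 214.4 in set 2, against 421.0, 846.6 and 1048.7 in sets 1 and 3, a fall of -1.26 ± 0.18, adjusted p = 0.00034. Its fellow irg-4 was lower by -0.82 ± 0.14, adjusted p = 0.0011, and irg-5 by -1.28 ± 0.26, adjusted p = 0.0028. In set 2 irg-5 had 425.6 and 491.1 in the HLH strain and 109.2 and 115.4 in the marker strain, against a lowest of 432.2, a median of 508.8 and a highest of 704.2 in sets 1 and 3. The limma test of a strain difference did not call irg-5. C-type lectin genes, of which 64 of 220 were tested, had 23 lower and 0 higher, with clec-41 at -0.96 ± 0.14 (adjusted p = 0.00036) and clec-52 at -1.02 ± 0.16 (adjusted p = 0.00062). Without the set 2 array of code 4 the lectin count was 8, and with the actin ratio as a covariate 6. Saposin-like genes were lower in 7 of 14 and lysozyme genes in 6 of 11, with 1 lysozyme gene higher. Both lower counts were 2 without the set 2 array of code 4 and also with the actin ratio as a covariate. Signals of spp-14 were 10597.1, 9450.2, 8660.5 and 6531.4 in set 2, against 12962.9, 14835.7 and 16584.5 in sets 1 and 3, a fall of -0.79 ± 0.10, adjusted p = 0.0002.

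Glutathione transferase genes were lower in 14 of 30 and higher in 3, with a median of -0.45, and lower in 16 after quantile normalization. The gene gst-5 had 1689.6, 1426.5, 1144.1 and 814.2 in set 2, against 1929.3, 2306.5 and 2933.6 in sets 1 and 3, a fall of -0.95 ± 0.14, adjusted p = 0.00037. The count was 6 without the set 2 array of code 4 and 5 with the actin ratio as a covariate. Cytochrome P450 genes, another detoxification family, had 6 of 33 higher (18.2%, against 20.8% over all genes) and 0 lower, with 2 higher without the set 2 array of code 3. Glucuronosyltransferase genes had 4 of 45 higher and 4 lower. Aspartic and cysteine protease genes of the gut lumen and lysosome were lower in 11 of 17, with asp-1 at 8861.4, 9042.7, 10442.4 and 11345.5 in set 2, against 13620.9, 16724.0 and 19174.8 in sets 1 and 3, a fall of -0.69 ± 0.06, adjusted p = 2.6e-05. The intestine list as a whole had 15 of 38 lower and 4 higher. Of the epidermal antimicrobial genes, the caenacin gene cnc-3, an antimicrobial peptide gene like nlp-33, was higher by 0.68 ± 0.09, adjusted p = 0.00031, and 2 of 6 tested caenacins were higher. Of 7 tested fip and fipr genes, named as fungus-induced, fipr-21 was higher by 0.53 ± 0.07, adjusted p = 0.00032, and fip-1 lower by -0.64, adjusted p = 0.026, with a median of -0.04 over the 7. The transporter gene pgp-5, tested only through the arrays of set 2, was higher by 1.35 ± 0.18 with overlap.

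Many nuclear receptor genes were higher in set 2. Of 254 on the array 125 were tested, and 66 were higher (52.8%) and 2 lower, with a median of 0.47 against 0.04 over all genes. After quantile normalization 50 were higher and 4 lower with a median of 0.33, and 17 of the 66 rises were at least 2-fold. The family median on each array was 0.19 to 0.38 in set 2 and -0.29 to 0.00 in sets 1 and 3. As 19 of the 125 were tested only through the arrays of set 2, the count for the other 106 is given too, 50 higher and 2 lower. Among these 106, nhr-202 had 556.7, 625.2, 486.2 and 488.4 in set 2, against a lowest of 154.7, a median of 266.1 and a highest of 331.8 in sets 1 and 3, a rise of 1.1 ± 0.14, adjusted p = 0.00022, with no overlap. Among the 19, nhr-132 had 222.0, 266.2, 358.9 and 335.6 in set 2, against 56.8, 75.4 and 118.8 in sets 1 and 3. Likewise nhr-210, also of the 19, had 261.7, 280.9, 411.8 and 379.3 in set 2, against 36.5, 75.8 and 126.4 in sets 1 and 3. Among receptors with known metabolic roles, nhr-49, a regulator of fat use, had 3649.8, 4049.4, 4498.3 and 4285.8 in set 2, against 2451.8, 2863.5 and 3411.0 in sets 1 and 3, a rise of 0.51 ± 0.11, adjusted p = 0.0032. The moulting regulator nhr-23 was higher by 0.36 ± 0.11, adjusted p = 0.023, with overlap, and its call was lost in 11 settings.

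The receptor nhr-88 went the other way, with 1189.1, 1115.0, 1282.9 and 1206.9 in set 2, against 1619.3, 2391.1 and 3228.8 in sets 1 and 3, a fall of -1.03 ± 0.18, adjusted p = 0.0012. Its 3 probe sets disagreed, 2 being lower and 1 higher, so its direction is uncertain. Set 3 also differed from set 1 in this family, with 6 receptors lower in set 3 and 0 higher, among them nhr-144, whose set 2 rise was 1.83 ± 0.42, adjusted p = 0.0049, and whose set 3 minus set 1 difference was -1.67, adjusted p = 0.012. Counts were 14 of 125 higher and 2 lower with the actin ratio as a covariate, where 686 of 9371 genes were higher and 520 lower. Without the set 2 array of code 3, 42 receptors were higher. Of genes of fasting and lipid use 6 of 32 were higher (18.8%, against 20.8% over all genes) and 1 lower, with the fat lipase gene atgl-1 at 1117.8, 1213.3, 916.0 and 986.7 in set 2, against 389.4, 534.3 and 667.0 in sets 1 and 3, a rise of 0.94 ± 0.14, adjusted p = 0.0005.

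MATH and BTB genes, of which 26 of 103 were tested, had 13 higher and 1 lower, with a median of 0.56. Because 9 of the 26 were tested only through the arrays of set 2, the remaining 17 give 6 higher and 1 lower with a median of 0.02. The rises of at least 2-fold numbered 10 over all 26. Of the 6, the neighbours math-27, math-26 and math-3 are described above. Among the 9, math-22, math-39 and math-47, all on chromosome II, were higher by 1.92 ± 0.32, 1.64 ± 0.23 and 1.35 ± 0.21 with no overlap. With the actin ratio as a covariate 9 were higher, and with the filter of at least 6 arrays 6. F-box genes, another large family of ubiquitin ligase adaptors, had 51 of 310 tested and 11 higher (21.6%, against 20.8% over all genes) with 2 lower. The higher count was 6 without the set 2 array of code 4. Of these 51, 9 needed the arrays of set 2, and of the other 42, 5 were higher and 2 lower. The gene fbxa-146, among the 9, was higher by 2.13 ± 0.46. With the actin ratio as a covariate 0 F-box genes were called by limma, while 5 were higher and 2 lower at an unadjusted p under 0.05.

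Genes of RNA processing were more often higher than lower, in groups formed after the values were seen. Of 107 splicing and mRNA processing genes 37 were higher and 9 lower, with 30 and 10 after quantile normalization and 21 and 4 with the actin ratio as a covariate. The higher count was 23 without the set 2 array of code 4. A spliceosome kinase gene, prpf-4, had 1025.0, 1108.3, 1242.6 and 1279.0 in set 2, against 252.5, 418.8 and 595.9 in sets 1 and 3, a rise of 1.52 ± 0.17, adjusted p = 0.0001. The splicing factor genes rbm-25 (1.42 ± 0.16, adjusted p = 0.0001), swp-1 (1.39 ± 0.14, adjusted p = 5.9e-05), uaf-2 (1.35 ± 0.19, adjusted p = 0.0003) and uaf-1 (0.64 ± 0.10, adjusted p = 0.00069) were higher with no overlap, uaf-1 and uaf-2 being the subunits of U2AF, which binds the 3′ splice site. The core Sm proteins were not, with 1 of 13 Sm and Sm-like genes higher and 3 lower, snr-6 at -0.53 ± 0.12, adjusted p = 0.0051. The 4 called of 8 smg genes, which degrade transcripts with early stop codons, were higher, namely smg-3 (0.70), smg-6 (0.56), smg-4 (0.54) and smg-1 (0.48), with adjusted p from 0.0029 to 0.011. The actin ratio as a covariate left 1 of the 8 higher.

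Small RNA pathway genes had 18 of 65 higher and 1 lower, with 15 higher and 6 lower after quantile normalization. Counts were 10 higher without the set 2 array of code 4 and 8 with the actin ratio as a covariate. Beside drh-2, the Piwi gene prg-2 had 1589.1, 1136.3, 1564.7 and 1239.2 in set 2, against 446.9, 527.2 and 776.3 in sets 1 and 3, a rise of 1.31 ± 0.15, adjusted p = 9.4e-05. The RNA interference gene rde-8 (1.03 ± 0.15, adjusted p = 0.00034) and the Argonaute gene wago-2 (0.94 ± 0.16, adjusted p = 0.001) were higher with no overlap. The other probe set of rde-8, at 0.27, was not called. The primary Argonaute gene rde-1 was higher by 0.65 ± 0.18, adjusted p = 0.014, with overlap. The microRNA Argonaute alg-1 was lower with its brightest probe set, -0.53 ± 0.12, adjusted p = 0.0048, and its other probe sets were not called. Mitogen-activated protein kinase genes, also grouped afterwards, had 9 of 16 higher and 1 lower, with 5 higher and 3 lower after quantile normalization. The higher count was also 5 without the set 2 array of code 3 and with the actin ratio as a covariate. The kinase gene mek-5 had 1648.0, 2135.7, 1770.0 and 1830.2 in set 2, against 564.9, 881.2 and 1104.8 in sets 1 and 3, a rise of 1.14 ± 0.17, adjusted p = 0.00042. The p38 genes pmk-1, pmk-2 and pmk-3 were higher by 0.56, 0.55 and 0.63, adjusted p = 0.023, 0.0043 and 0.0018, and their upstream kinase gene sek-1 was lower by -0.38, adjusted p = 0.026. The call was lost in 8 settings for pmk-1, quantile normalization among them (adjusted p = 0.07), and in 9 for sek-1, up to an adjusted p of 0.37 against set 3 alone. The other probe set of sek-1, at -0.17, was not called.

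Pseudogenes were among both the rises and the falls. Of 877 annotated pseudogenes on the array 111 were tested, and 40 were higher and 17 lower, 22 of them at least 2-fold higher, against 1907 higher and 1405 lower of 9248 protein-coding genes, of which 206 were at least 2-fold higher. The set 2 arrays were needed to test 26 of the pseudogenes, and their part in the 22 rises was not counted. The other 85 gave 23 higher and 17 lower with a median of -0.15, where 19.2% of all genes that pass this way were higher. After quantile normalization 36 of the 111 were higher and 23 lower, with a median of -0.01. After C02G6.1, with its rise of 3.28, the highest rise by the brightest probe set was that of F56D5.4, with 1995.4, 1830.9, 1779.3 and 1872.0 in set 2, against 76.9, 285.3 and 438.4 in sets 1 and 3, a rise of 3.01 ± 0.42, adjusted p = 0.00031, and of 1.66 with its other probe set. Probe sets of pseudogenes can share sequence with functional copies, which was not tested. By chromosome the medians were 0.04 on each of I to V and X, and 4 of 8 mitochondrial genes were lower, with a median of -0.19. After quantile normalization 1 of the 8 was lower and the median was 0.07.

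Body wall muscle genes were lower in 14 of 48 (29.2%, against 15.2% over all genes) and higher in 7 (14.6%, against 20.8%). After quantile normalization 8 were lower and 11 higher, so the direction of the list turned with the scaling. The myosin heavy chain gene unc-54 had 6388.6, 6377.7, 6948.6 and 7246.1 in set 2, against 8115.5, 10747.9 and 11873.8 in sets 1 and 3, a fall of -0.55 ± 0.07, adjusted p = 0.00017. Troponin I, tni-3, had 1042.2, 1073.4, 1373.8 and 1421.0 in set 2, against 486.0, 763.9 and 981.3 in sets 1 and 3, a rise of 0.76 ± 0.13, adjusted p = 0.0011. Pharynx genes were higher in 5 and lower in 4 of 33, where the homeobox regulator ceh-22 rose by 0.88 ± 0.16 (adjusted p = 0.0015) and its muscle's myosin gene myo-1 fell by -0.55 ± 0.11 (adjusted p = 0.0023). Hypodermis genes were higher in 8 and lower in 3 of 31, or 25.8% and 9.68%, against 20.8% and 15.2% over all genes. M lineage and mesoderm genes, the tissue of Twist, were higher in 7 and lower in 1 of 25, or 28% and 4%. The higher ones included unc-120 at 0.76 ± 0.12, adjusted p = 0.00062, and the Hox gene lin-39 at 0.63 ± 0.13, adjusted p = 0.0026. Cuticle collagen genes were lower in 26 of 77 (33.8%) and higher in 3 (3.9%). Homeobox genes of the ceh family were higher in 7 (30.4%) and lower in 2 (8.7%) of 23. Moulting genes were higher in 11 and lower in 8 of 49, or 22.4% and 16.3%, near the shares over all genes. Without the set 2 array of code 4 the counts were 17 lower for collagens, 5 higher for hypodermis, 2 higher for pharynx and 3 higher for the ceh family, and without that of code 3, 7 higher for moulting genes.

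The direction of the difference varied with brightness and gene length. The tested probe sets were cut into 5 bins of 2453 by mean signal. In the brightest bin, with mean signals from 1359 to 19386, 222 were higher and 831 lower in set 2, with a median of -0.14, whereas in the middle bin 713 were higher and 234 lower, with a median of 0.14. After quantile normalization the brightest bin had 357 higher and 504 lower, with a median of -0.02. Genes were likewise cut into 5 bins by annotated length, of which the shortest, 0.07 to 1.31 kb, had 254 higher and 516 lower with a median of -0.12, and the longest, 5.38 to 81.7 kb, had 449 higher and 158 lower with a median of 0.11. Quantile normalization left medians of -0.10 for the shortest and 0.03 for the longest bin. The part of these trends in the gene groups above was not tested.

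**Figure D5:**
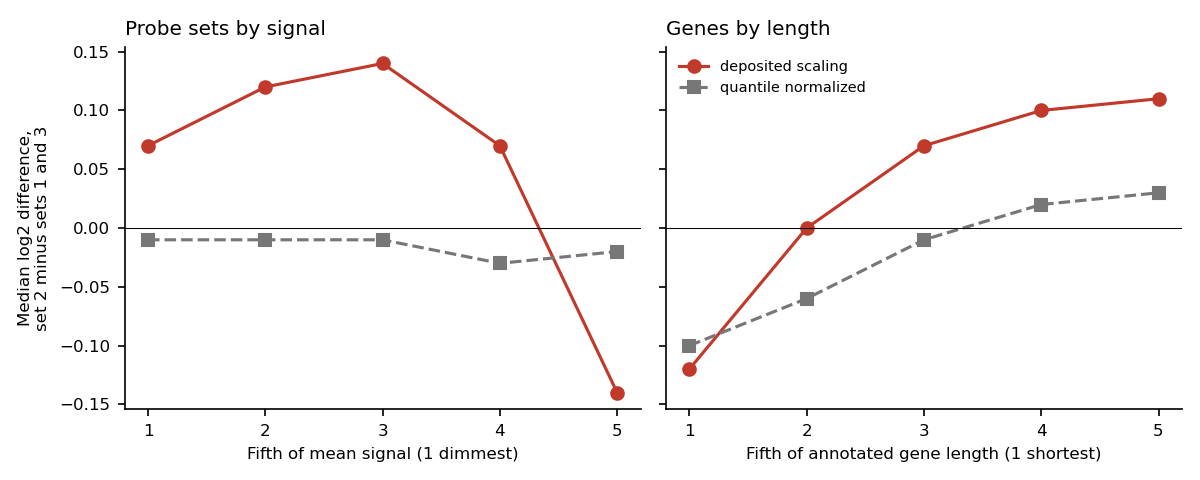
Median log2 difference, set 2 minus sets 1 and 3, by 5 bins of mean signal over 12265 probe sets (left) and of annotated gene length over 9371 genes (right), with the deposited scaling as circles and quantile normalized values as squares. With the deposited scaling the median is lowest in the brightest bin (-0.14) and in the shortest bin (-0.12). After quantile normalization the trend with signal is nearly flat, and the trend with length spans -0.10 to 0.03.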

How the data were processed

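The authors deposited an intensity, the MAS5 signal, for each of 22625 probe sets on 12 arrays; the submitters' processing notes name MAS5 without a version. The table is already scaled by the authors: the mean trimmed by 2% at each end was 500 on all arrays. Signals below a floor of 16.7, the 10th percentile, were raised to it and log2 transformed. After 77 control probe sets were left out, 12265 that exceeded the median signal of the array on 3 or more of the 11 arrays were tested with limma 3.58.1 in R 4.3.3 (lmFit, eBayes with an intensity trend, 6 residual and 6.98 prior degrees of freedom), with title code and set 2 as terms, two-sided, with Benjamini-Hochberg adjustment over all tested probe sets and a call at an adjusted p under 0.05. Errors are standard errors. The fit was tested on simulated data with independent errors on each array and known changes. No deviation shared by a batch was simulated, so false calls from a batch could not appear there. Title codes pair the arrays across sets, because a code names the same strain in every set per the labels. Deviations from set means correlated by 0.225 to 0.485 in 10 pairs of arrays with the same code in different sets and by -0.47 to 0.349 in 30 pairs with different codes. Precision is limited by the number of arrays.

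Probe sets were named from the platform annotation. It gives 1 gene for 20766 probe sets, more than 1 for 887 and no gene for 895, and 20701 symbols were updated with the WBcel235 gene table while 65 kept the platform's name. A gene was represented by its brightest probe set that names 1 gene. The text names, among called probe sets whose set 2 array lay beyond every same-code array at all 4 codes, the top 15 rises and the top 15 falls in size, using for a gene the probe set with its smallest p, then of each list up to 4 members with the smallest p, and the construct and hsp-16 genes. Members and lists were chosen with earlier results of these data known. The groups of splicing, smg, small RNA, translation factor, aminoacyl-tRNA synthetase, kinase and Sm genes, and further genes named within groups, were chosen after their values were seen. Alternatives were quantile normalization, other filters, an offset of 50 added to the signal, no intensity trend, no code term, set as a random block (estimated correlation 0.104), set 1 or set 3 alone, the array titled 2_2 (2) kept, and each array left out. A quantile fit with the random block and a fit with the actin ratio as a covariate were added after seeing the data.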

Additional observations from a re-analysis of the deposited data

Results flagged for a closer look

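In groups of 4 set 2 arrays or 7 arrays of sets 1 and 3, a value was singled out where its gap to the nearest other array was large against the group's range by Dixon's criterion. Over 80 groups, 10 values were singled out, and chance gives about 1 in 20. In set 2, C02G6.1 was lowest at code 1, 215.8, F27D4.6 lowest at code 2, 206.0, nspg-7.2 lowest at code 3, 8.5, and B0273.1 lowest at code 4, 44.1. Also in set 2, ncbp-2 was highest at code 1, 114.1, and vha-12 highest at code 1, 2833.4, both on the side of sets 1 and 3. In sets 1 and 3, best-19 was highest at set 1 code 2, 121.0, tag-164 lowest at set 1 code 4, 130.3, flp-7 lowest at set 3 code 3, 597.7, and the median signal lowest at set 3 code 3, 180. The value 8.5 of nspg-7.2 lay below the floor of 16.7.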

How the results depend on the processing

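The count of 4500 called probe sets (2636 higher and 1864 lower in set 2) was between 3159 and 4549 under quantile normalization, the other filters, the offset, no trend, the random block, set 1 or set 3 alone, and the array titled 2_2 (2) kept or averaged with its namesake. Without title code as a replicate block 3757 were called (2264 higher, 1493 lower). Leaving out single arrays gave 2534 to 4389 (1486 to 2618 higher, 1048 to 1806 lower), with 2534 without the set 2 array of code 4 and 2739 without that of code 3. Quantile normalization with the random block gave 2931 (1441 higher, 1490 lower). The actin ratio as a covariate gave 1692 (1009 higher, 683 lower); 1567 of them were called the same way and 0 the opposite way in the fit without it, and all 4500 kept their sign. Over those 4500 its median size of difference was 0.50 with a median standard error of 0.18, against 0.13 without the covariate. Set 3 against set 1 gave 176 calls, 85 after quantile normalization and 5 without the filter, and the strain difference 0, 0 and 5. Among single genes, eef-1A.1 was called lower and had a difference of 0.0 (adjusted p = 0.99) after quantile normalization with the random block. The causes were not tested.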
